A study of Mus musculus with 24 samples.

Results

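The Schlafen genes of the mouse are described here in leukemic bone marrow. The members are Slfn1, Slfn2, Slfn3, Slfn4, Slfn5, Slfn8 and Slfn9, taken by symbol, and all 7 were found among the 24421 genes of the count table. The family was chosen by name after differences between the treated and vehicle specimens of these libraries were known, among them the low Slfn9 level with the PI3K inhibitor. Differences between treatments are therefore descriptions of these specimens, and the number of members called by the fit supports nothing about the family.

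RNA-seq was made from bone marrow mononuclear cells of mice with the Shp2 E76K allele, which makes the phosphatase SHP2 overactive and is used to model childhood myelomonocytic leukemia. For 3 weeks the mice were given vehicle, the BTK inhibitor ACP196 (BTK is Bruton's tyrosine kinase), the PI3K inhibitor ACP319 (directed at the p110δ catalytic subunit of phosphoinositide kinase) or both compounds. The 24 listed samples carry 12 specimen numbers, 3 per group, and the table has 1 count column per number: vehicle holds 1 to 3, the BTK inhibitor 4 to 6, the PI3K inhibitor 7 to 9 and the combination 10 to 12. All 4 groups carry Shp2 E76K, so no value here compares leukemic with normal marrow. The sources used here do not give age, doses or how the allele is expressed. Nor do the labels say that the specimens are different mice. Y-linked RNA was called present in vehicle 1 and 2, BTK inhibitor 4, PI3K inhibitor 8 and combination 11, and in no other specimen. Each group thus holds RNA of more than 1 mouse, and the spread between its specimens includes a difference between mice. Whether all 3 specimens of a group are different mice is not known. The p-values then cover the spread between specimens, part of which may be technical.

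Schlafen proteins are vertebrate regulators of growth and antiviral defence, and many of their genes are induced through type I interferon receptors. They share an N-terminal core that in several members binds or cuts RNA, including transfer RNA. The short members Slfn1 and Slfn2 consist mostly of this core, the intermediate members Slfn3 and Slfn4 add a linker domain, and the long members Slfn5, Slfn8 and Slfn9 also carry a helicase-like domain. In blood cells the family is known for quiescence: mice with a mutant Slfn2 lose quiescent T cells and monocytes, and Slfn4 marks immature myeloid cells.

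The members lie side by side on chromosome 11 (mm10), in a stretch of 263 kb from 82952102 to 83215154. Slfn5 (chr11:82952102-82964850) is on the forward strand, followed by Slfn9 (chr11:82980303-82991830) and Slfn8 (chr11:83002158-83020810) on the reverse strand. Slfn2 (chr11:83065112-83070678), Slfn1 (chr11:83116845-83122659), Slfn4 (chr11:83175186-83190216) and Slfn3 (chr11:83191330-83215154) are on the forward strand. Promoter sequence was matched for 7 of 7 members (RefSeq, GRCm38.p6, 250 bases before to 50 after the start). The core of the interferon-stimulated response element was searched on both strands, as GAAA, then NN (any base), then GAAA again. It was present in the promoters of Slfn5, Slfn8 and Slfn9 and not in those of Slfn1, Slfn2, Slfn3 and Slfn4. These letters occur in 3.44% of 32851 promoters of this length and in 16 of 27 promoters of a list of interferon-stimulated genes. The sequences are shown because these 3 promoters hold the match; nothing about the treatment differences is read from it. They are printed along the gene's strand with the match in capitals, which for Slfn8 and Slfn9 reads on the opposite strand.
Slfn5, chr11:82951917-82951986: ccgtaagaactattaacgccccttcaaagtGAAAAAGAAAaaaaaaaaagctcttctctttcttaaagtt
Slfn8, chr11:83020819-83020888: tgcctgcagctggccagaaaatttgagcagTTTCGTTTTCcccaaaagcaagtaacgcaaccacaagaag
Slfn9, chr11:82991836-82991905: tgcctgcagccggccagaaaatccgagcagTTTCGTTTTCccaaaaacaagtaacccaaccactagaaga
Relative to the start site the match ends at -39 in Slfn8, at -36 in Slfn9 and at -146 in Slfn5. Slfn8 has another annotated start, from which the same match ends at -127. The promoters of Slfn8 and Slfn9 are near copies, with 252 identical bases (84%) in a global alignment, against 167 to 187 for the other pairs of members. A match describes these letters in this window and is no evidence of binding.

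Because members resemble each other, reads may be shared between them. Of the 50-base stretches in the GENCODE transcripts, 11.9% of those of Slfn9 and 14.6% of those of Slfn8 also occur in another gene, mainly Slfn10-ps and each other. The share was 16% for Slfn3 and 11.3% for Slfn4, and 4.27% for Slfn2 and 0.606% for Slfn1. At 100 bases it was 3.71% for Slfn9, 3.38% for Slfn8, 2.92% for Slfn3 and at most 0.271% for Slfn1, Slfn2 and Slfn4. For Slfn5 the shares were 11.1% and 6.4%, mostly with its antisense gene. In Slfn5 77 exonic bases (chr11:82960605-82960681) overlap this antisense gene, Slfn5os, which had 0 counts in the 12 specimens; the library kit does not mark strand. The sources used here do not say how shared reads were counted, so the split between these members is uncertain to that extent.

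Each specimen had from 8993950 to 22154833 counts, and 12742 genes, the 7 members included, passed the filter on low counts. BTK inhibitor replicate 5 stands apart, with the lowest total and with Rn45s, a ribosomal RNA precursor, at 15.4% of its counts against at most 0.773% elsewhere. BTK inhibitor replicate 6 carries day 30 in its title and the other specimens day 24. The dependence of level on gene length also varied, with a slope (log2 per doubling of length) of 0.22 ± 0.16 in vehicle (SD, n = 3), -0.15 ± 0.29 with the BTK inhibitor, -0.28 ± 0.16 with the PI3K inhibitor and 0.21 ± 0.10 in the combination. Members were therefore set beside the 500 tested genes nearest to each in length. Markers of immature neutrophils summed to between 28193 and 96526 CPM (the count divided by the TMM-scaled library total), T cell markers to between 62.6 and 354 CPM and monocyte markers to between 1670 and 3450 CPM, so the cells labelled mononuclear carried much granulocyte RNA.

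Levels within the family were compared per kilobase in vehicle. Slfn2 was the most abundant member at 341 ± 101 CPM per kilobase (SD, n = 3), followed by Slfn1 at 141 ± 45.1 and Slfn4 at 80.8 ± 54.2. Slfn5 followed at 13.1 ± 1.64, Slfn8 at 10.3 ± 1.95, Slfn3 at 7.40 ± 0.81 and Slfn9 at 7.01 ± 1.21 CPM per kilobase. The ranges of Slfn1 and Slfn4 over specimens overlapped, as did those of Slfn5 and Slfn8 and those of Slfn3 and Slfn9. Within each vehicle specimen, however, Slfn1 was above Slfn4 and Slfn5 was above Slfn8. The order of Slfn3 and Slfn9 changed between specimens, so these neighbours are not separated. On this scale Slfn2 made up 55.1%, 60.8% and 56.4% of the family signal in the vehicle specimens. Its share was 73.1%, 78.9% and 76.05% with the PI3K inhibitor, and 76.9%, 89.9% and 64.7% in BTK inhibitor replicates 4, 5 and 6. In the combination it was 71.7%, 52.2% and 62.3%, so the specimens of both single inhibitors were all above vehicle while the combination overlapped vehicle. CPM per kilobase does not remove the length slope, whose mean was lower with both single inhibitors than in vehicle. Slfn2 is the shortest member, at 1664 bases, and what the slope contributes to these shares was not tested.

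**Figure D1:**
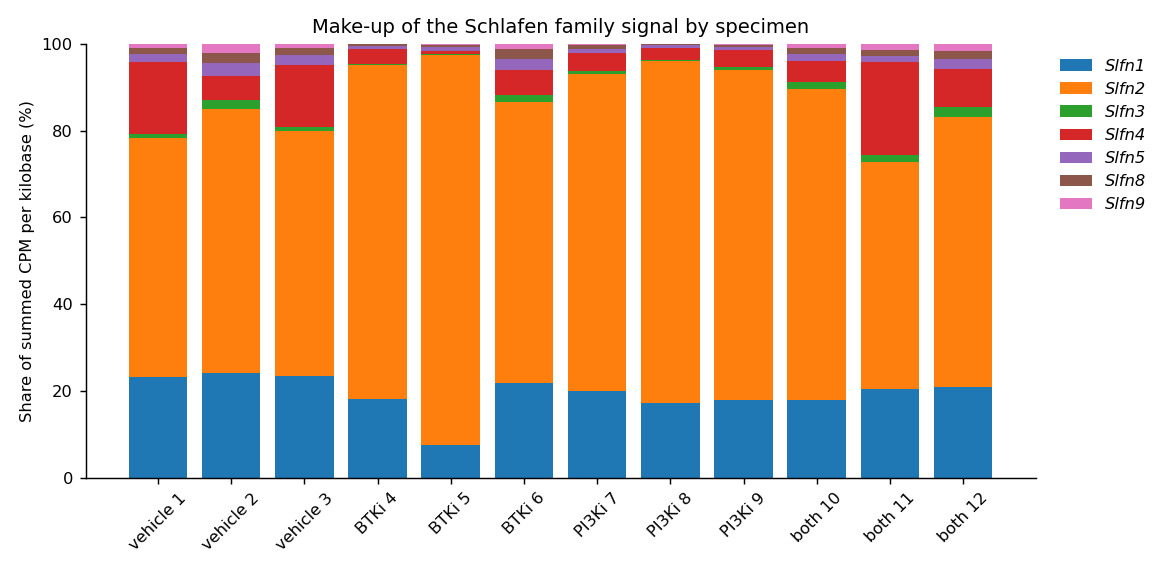
Share of each member in the summed CPM per kilobase of the 7 Schlafen genes (y axis, percent) in each of the 12 specimens (x axis). Slfn2 is the widest band in every specimen, from 52.2% in combination replicate 11 to 89.9% in BTK inhibitor replicate 5.

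Among the short members, Slfn2, the quiescence gene, was at 686, 376 and 641 CPM in vehicle replicates 1, 2 and 3. It was at 1004, 1302 and 474 CPM in BTK inhibitor replicates 4, 5 and 6, at 583, 952 and 631 with the PI3K inhibitor and at 439, 313 and 320.1 with the combination. The single inhibitors overlapped vehicle, and the combination specimens were below each specimen of either inhibitor alone. Slfn1, whose protein was first described as a brake on thymocyte growth, was at 322, 167 and 298 CPM in vehicle and at 266, 122 and 179 with the BTK inhibitor. Its level was 177, 232 and 166 CPM with the PI3K inhibitor and 122, 138 and 119 with the combination, where each specimen lay below each vehicle specimen. The short members thus had their lowest group means, 357 ± 70.9 CPM for Slfn2 and 126 ± 9.85 for Slfn1 (SD, n = 3), when both inhibitors were given.

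Of the intermediate members, Slfn4, the immature myeloid gene, varied most within vehicle, at 492, 79.2 and 390 CPM. It was at 108, 29.7 and 101 CPM with the BTK inhibitor, at 79.8, 79.9 and 76.8 with the PI3K inhibitor and at 69.7, 304 and 105 with the combination. Vehicle replicate 2 lay within or near the treated specimens, and each treated group overlapped vehicle. Slfn3 is a near relative of Slfn4 with a low level in these cells. It was at 12.8, 15.1 and 12.4 CPM in vehicle and 11.5, 11.4 and 13.8 CPM with the combination, which overlap. With the PI3K inhibitor it was at 6.24, 2.94 and 5.57 CPM, below every vehicle specimen. BTK inhibitor replicates 4 and 5 were at 3.88 and 2.42 CPM while replicate 6 was at 13.7 CPM, a vehicle-like level.

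The long members each had their highest group mean in vehicle and their lowest with the PI3K inhibitor. Slfn5, known as a transcriptional regulator of interferon responses and of T cells, was at 79.3, 68.0 and 87.6 CPM in vehicle. It was at 26.9, 25.7 and 19.95 CPM with the PI3K inhibitor and at 34.0, 31.2 and 42.7 with the combination, and BTK inhibitor replicates 4, 5 and 6 were at 29.7, 37.4 and 66.5 CPM. Slfn5 and Slfn9 were the members with every specimen of the 3 treated groups below every vehicle specimen. For both the margin was narrow in BTK inhibitor replicate 6, at 66.5 against 68.0 CPM for Slfn5 and 21.2 against 21.8 for Slfn9. The share of all tested genes with this pattern was not counted, and the 3 comparisons use the same vehicle specimens. Slfn8 was at 40.96, 33.8 and 49.5 CPM in vehicle and at 15.4, 7.88 and 13.2 with the PI3K inhibitor. In the combination Slfn8 was at 21.3, 20.03 and 23.3 CPM, between vehicle and the PI3K inhibitor with no overlap on either side, and BTK inhibitor replicates 4, 5 and 6 were at 12.53, 21.4 and 37.6 CPM. Slfn9 was at 28.5, 30.8 and 21.8 CPM in vehicle, and at 6.28, 0.668 and 2.72 with the PI3K inhibitor (148, 10 and 43 counts). The combination specimens of Slfn9 were at 13.7, 19.7 and 20.1 CPM, and BTK inhibitor replicates 4, 5 and 6 at 1.17, 6.26 and 21.2 CPM. BTK inhibitor replicate 6 was the highest specimen of its group for Slfn3, Slfn5, Slfn8 and Slfn9, and the lowest for Slfn2.

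**Figure D2:**
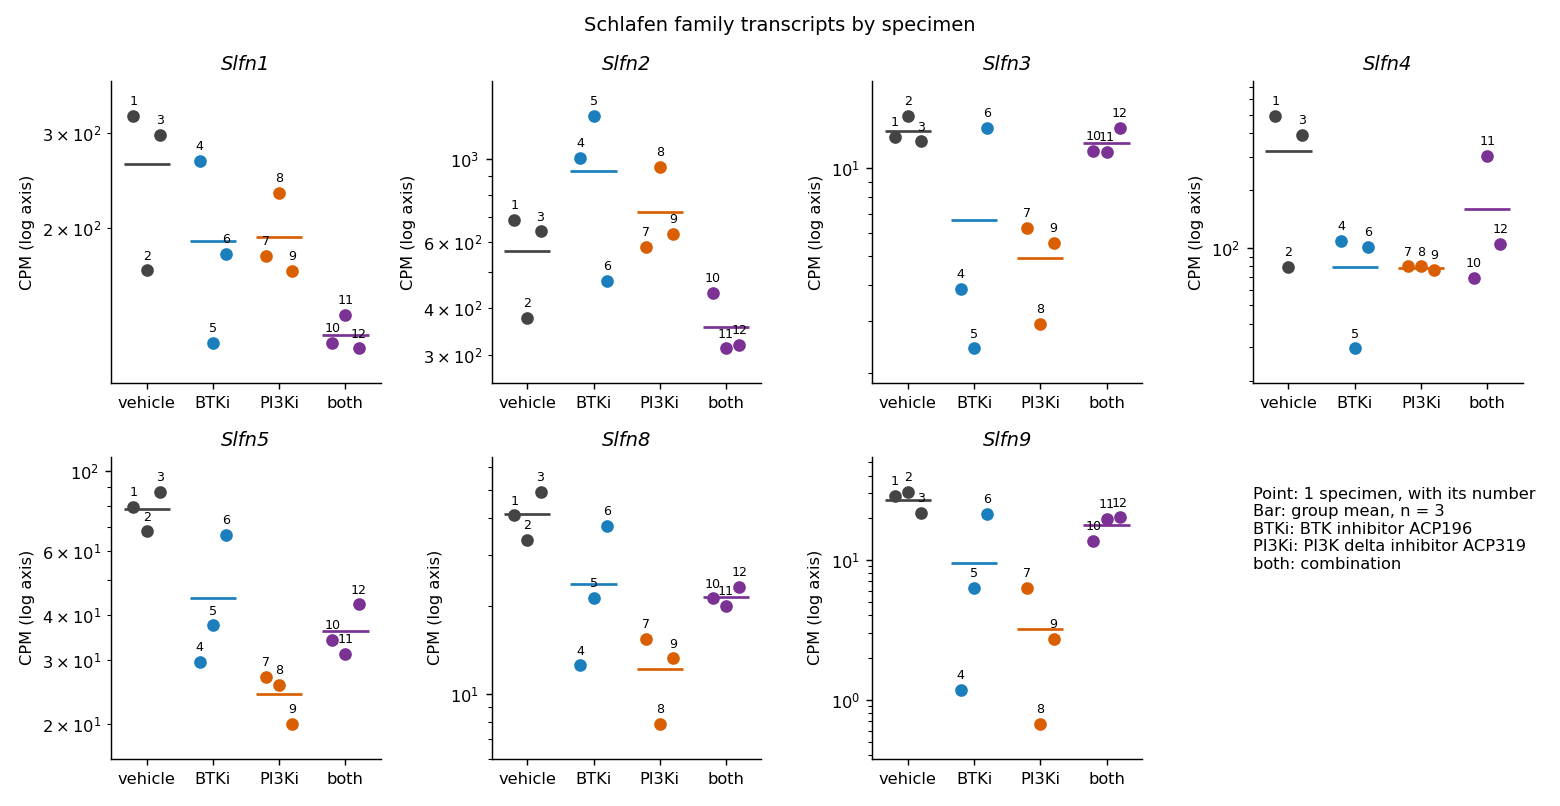
Normalised counts (CPM, log axis) of the 7 Schlafen members in each specimen by treatment; points carry the specimen number and bars are group means of 3 specimens. The PI3K inhibitor specimens of Slfn3, Slfn5, Slfn8 and Slfn9 lie below all vehicle specimens, and Slfn1 and Slfn2 have their lowest group means in the combination.

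With the PI3K inhibitor, the long members were lower than in vehicle by log2 differences of -3.04 ± 0.82 for Slfn9 (SE, 8.21-fold), -1.76 ± 0.37 for Slfn8 (3.39-fold) and -1.69 ± 0.30 for Slfn5 (3.24-fold). Slfn4 and Slfn3 had differences of -2.02 ± 0.67 and -1.44 ± 0.49, Slfn1 one of -0.45 ± 0.32 and Slfn2 one of 0.35 ± 0.37. Genes as long as a member also differed: the 500 nearest in length had a median of -0.30 for Slfn9 (quartiles -0.68 and 0.12), -0.39 for Slfn8, -0.63 for Slfn5 and -0.37 for Slfn4. For the short transcripts the medians were positive, at 0.35 for Slfn1, 0.44 for Slfn2 and 0.35 for Slfn3. Of the 500, 1 was lower than Slfn9, 12 were lower than Slfn8, 20 than Slfn5, 8 than Slfn4, 2 than Slfn3, 53 than Slfn1 and 210 than Slfn2. Slfn2 was thus within the quartiles of genes of its length (0.04 and 0.82), and the other 6 members lay below the first quartile of theirs. The median over the 7 members was -1.69 and over all tested genes -0.01.

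In the quasi-likelihood test of edgeR, with p adjusted by Benjamini-Hochberg over the 12742 genes, 3 of 7 members (Slfn5, Slfn8 and Slfn9) passed as lower with the PI3K inhibitor, where 5.82% of all tested genes passed as lower. Specimens did not overlap, all below vehicle, for 4 of 7 members (Slfn3, Slfn5, Slfn8 and Slfn9), against 26.3% of tested genes. Among the 500 genes nearest in length this share was 56% for Slfn5, 37.8% for Slfn8, 34.8% for Slfn9 and 6% for Slfn3. Since this comparison was among the results known when the family was chosen, nothing is read from these counts. The number of members called was 0 with a gene length offset and 0 with a covariate for Y-linked RNA. That RNA was present in 2 of 3 vehicle specimens and in 1 of 3 in each treated group. It was thus unbalanced in each comparison with vehicle. Members called were also 0 when any of these specimens was left out: vehicle 1, 2 or 3, PI3K inhibitor 8 or 9, combination 10, 11 or 12. In each of these fits, the offset and the covariate included, 0% of all tested genes passed. The 0 members there are therefore nothing particular to the family. Members called were 5 without BTK inhibitor replicate 5 or 6, where 33.8% and 26.2% of tested genes were called in either direction (10.7% with all specimens). DESeq2 called 5 members and 25.3% of genes, limma voom 6 members and 37.4%, and the offset with BTK inhibitor replicate 5 left out 5 members and 18.9%. With no filter 2 members (Slfn5 and Slfn8, without Slfn9) and 7.33% of genes were called. Over these alternatives the log2 difference stayed between -3.97 (without PI3K inhibitor replicate 7) and -2.57 (without replicate 8) for Slfn9, between -2.02 and -1.46 for Slfn8 and between -1.79 and -1.08 for Slfn5. With the length offset it was -2.80 for Slfn9, -1.47 for Slfn8 and -1.09 for Slfn5, while that of Slfn2 was -0.076 in place of 0.35.

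**Figure D3:**
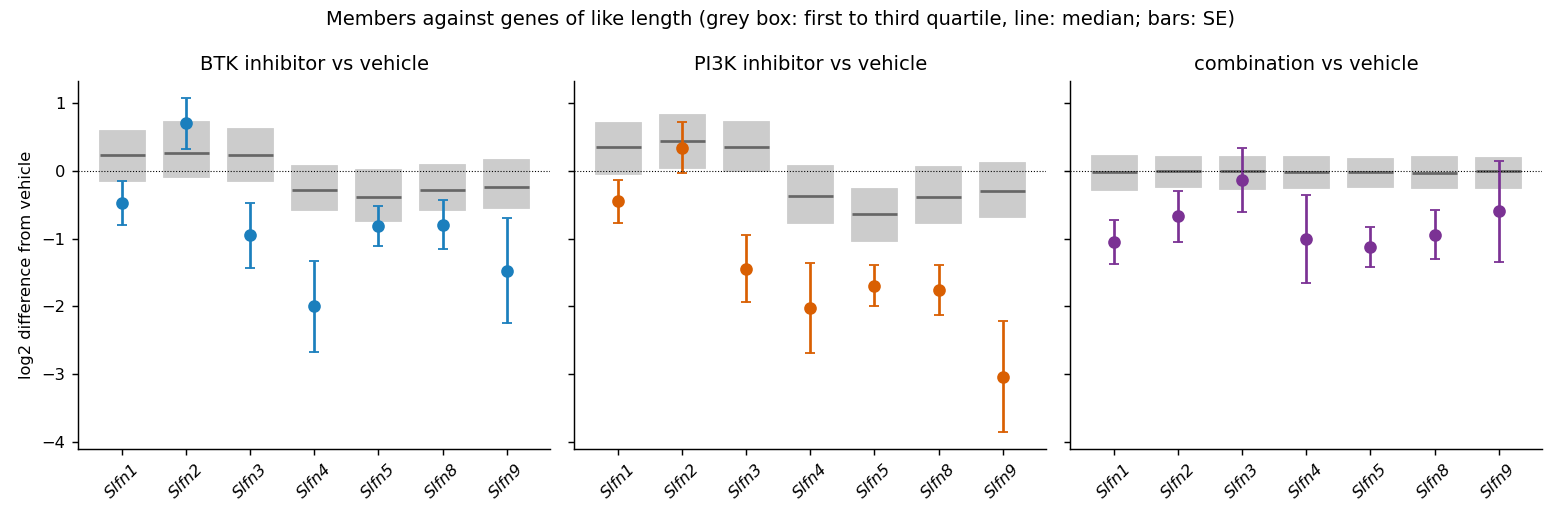
Log2 difference of each member from vehicle (points, bars are SE) in the 3 treated groups, over the interquartile range (grey boxes) and median (lines) of the 500 tested genes nearest in length. In the combination the medians of genes of like length are near 0, from -0.02 to 0.00, and 7 of 7 members are below them; with the inhibitors alone the medians are positive for Slfn1, Slfn2 and Slfn3 and negative for the longer members.

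The BTK inhibitor group was split by its specimens. Slfn4 had a log2 difference from vehicle of -1.9995 ± 0.67 (SE), Slfn9 one of -1.47 ± 0.77, Slfn3 one of -0.95 ± 0.49, Slfn5 one of -0.81 ± 0.29, Slfn8 one of -0.79 ± 0.36 and Slfn1 one of -0.47 ± 0.32. Slfn2 was higher in the mean, at 0.71 ± 0.38. Slfn4 was lower than each of the 500 genes nearest in length, whose median was -0.28, and 6 of these genes were lower than Slfn9 in its own set. Slfn5 stood closer to genes of its length, with 96 of 500 lower, and Slfn2 again lay within the quartiles (-0.09 and 0.73). In edgeR 0 of 7 members passed at the adjusted threshold, as did 0% of tested genes, with 3 members and 3153 genes at an unadjusted p under 0.05. DESeq2 called 1 member and 8.52% of genes, and limma voom 5 members and 23.4%. Specimens did not overlap, below vehicle, for Slfn5 and Slfn9, against 9.61% of tested genes and 19% and 13.6% of the genes nearest to each in length. Without replicate 6, the specimen with the other title date, 6 of 7 members passed, where 29.4% of tested genes passed in either direction: Slfn9 at -3.07, Slfn4 at -2.20, Slfn3 at -2.03, Slfn8 at -1.31 and Slfn5 at -1.23 were lower and Slfn2 at 1.02 was higher. Without replicate 5, 0 passed, and Slfn9 was at -1.27 and Slfn2 at 0.38. The single inhibitors and the combination share the vehicle specimens, so their differences from vehicle are not independent of each other.

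In the combination the length slope of the libraries was close to that of vehicle, and the genes nearest in length to each member had medians between -0.02 and 0.00. All 7 members had negative differences from vehicle. Slfn5 was at -1.12 ± 0.30 (SE, 2.17-fold lower), Slfn1 at -1.05 ± 0.32, Slfn4 at -1.004 ± 0.65 and Slfn8 at -0.94 ± 0.36. Slfn2 was at -0.67 ± 0.38, Slfn9 at -0.60 ± 0.75 and Slfn3 at -0.14 ± 0.48. Of the 500 nearest in length, 3 were lower than Slfn5, 4 than Slfn1, 3 than Slfn4, 2 than Slfn8 and 16 than Slfn2, and 178 were lower than Slfn3. With the length offset the values moved little: -1.14 for Slfn5, -1.03 for Slfn1 and -0.94 for Slfn8. The median over the members was -0.94 and over all tested genes 0.00. In edgeR 0 of 7 members passed at the adjusted threshold, as did 0% of tested genes, with 3 members and 626 genes at an unadjusted p under 0.05. DESeq2 called 0 members and 0.173% of genes, and limma voom 5 members, all lower, and 9.74% of genes in either direction. Specimens did not overlap, below vehicle, for Slfn1, Slfn5, Slfn8 and Slfn9, against 9.47% of tested genes and 7.8% to 11.6% of the genes nearest to each in length. Slfn4 depended on single specimens, at -1.87 without combination replicate 11, -0.65 without combination replicate 10 and -0.56 without vehicle replicate 1.

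Set against the PI3K inhibitor alone, the combination had higher mean levels of the intermediate and long members and lower ones of the short members. Slfn9 was higher by a log2 difference of 2.44 ± 0.80 (SE), Slfn3 by 1.31 ± 0.49, Slfn4 by 1.02 ± 0.65, Slfn8 by 0.82 ± 0.36 and Slfn5 by 0.57 ± 0.29, while Slfn2 was at -1.01 ± 0.38 and Slfn1 at -0.60 ± 0.32. The genes nearest in length had medians of 0.31 for Slfn9, 0.63 for Slfn5 and 0.38 for Slfn8, and of -0.36 for Slfn3 and -0.45 for Slfn2. Slfn5 was thus near the median of genes of its length, with 224 of 500 lower, and with the length offset its difference was -0.050. Slfn3 and Slfn9 were higher than 497 and 499 of the 500 nearest in length. Slfn3, Slfn5, Slfn8 and Slfn9 did not overlap, above the PI3K inhibitor, against 26.5% of tested genes, and Slfn1 and Slfn2 did not overlap below it, against 24.6%. Among genes nearest in length the share above was 64.4% for Slfn5, 42% for Slfn8, 37.4% for Slfn9 and 4.2% for Slfn3, and the share below was 38.2% for Slfn1 and 47.8% for Slfn2. The Slfn4 difference was 0.15 without combination replicate 11. In edgeR 0 of 7 members passed at the adjusted threshold, as did 0% of tested genes, with 4 members and 3660 genes at an unadjusted p under 0.05. DESeq2 called 1 member and 9.62% of genes, limma voom 6 members and 41.9%, and the fit of only these groups 5 members and 32.6%. Without BTK inhibitor replicate 5 or 6 edgeR called 3 members (Slfn2, Slfn3 and Slfn9), with 19.3% and 13.9% of genes.

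Between the combination and the BTK inhibitor alone, Slfn2 had a log2 difference of -1.37 ± 0.38 (SE), the smallest p among the members, with all 3 combination specimens below all 3 BTK inhibitor specimens, against 6.73% of tested genes and 11.8% of the genes nearest in length. Of the 500 genes nearest to Slfn2 in length, whose median was -0.29, 29 were lower. Slfn4 was at 0.996 ± 0.65, Slfn9 at 0.87 ± 0.76, Slfn3 at 0.82 ± 0.49, Slfn1 at -0.58 ± 0.32, Slfn5 at -0.31 ± 0.29 and Slfn8 at -0.15 ± 0.36. In edgeR 0 of 7 members passed at the adjusted threshold, as did 0% of tested genes, with 1 member and 2569 genes at an unadjusted p under 0.05. The Slfn4 difference was 0.13 without combination replicate 11 and 0.61 without BTK inhibitor replicate 5. DESeq2 called 1 member (Slfn2) and 4.53% of genes, and limma voom 4 members and 39.1%. Without BTK inhibitor replicate 6, 3 members and 26.8% of tested genes passed: Slfn2 was at -1.69, Slfn3 at 1.89 and Slfn9 at 2.47; Slfn5 then turned to 0.11 and Slfn8 to 0.37.

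The level of several members moved with the length slope of the library. In the 5 libraries of negative slope (BTK inhibitor replicates 4 and 5 and PI3K inhibitor replicates 7, 8 and 9) Slfn9 lay between 0.668 and 6.28 CPM, and in the 7 of positive slope between 13.7 and 30.8 CPM. Slfn3 lay between 2.42 and 6.24 CPM in the former and between 11.4 and 15.1 in the latter, although it is among the short transcripts at 1816 bases. Slfn5 and Slfn8 overlapped between these libraries, at 19.95 to 37.4 against 31.2 to 87.6 CPM and at 7.88 to 21.4 against 20.03 to 49.5 CPM. Slfn2 ran the other way, at 583 to 1302 CPM in the 5 libraries and 313 to 686 in the other 7. Slfn1 and Slfn4 overlapped widely. The share of all tested genes that separate these libraries without overlap was not counted. The slope was itself computed from the levels of the tested genes, the members included. What the slope contributes to these levels beyond the length offset was not tested.

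**Figure D4:**
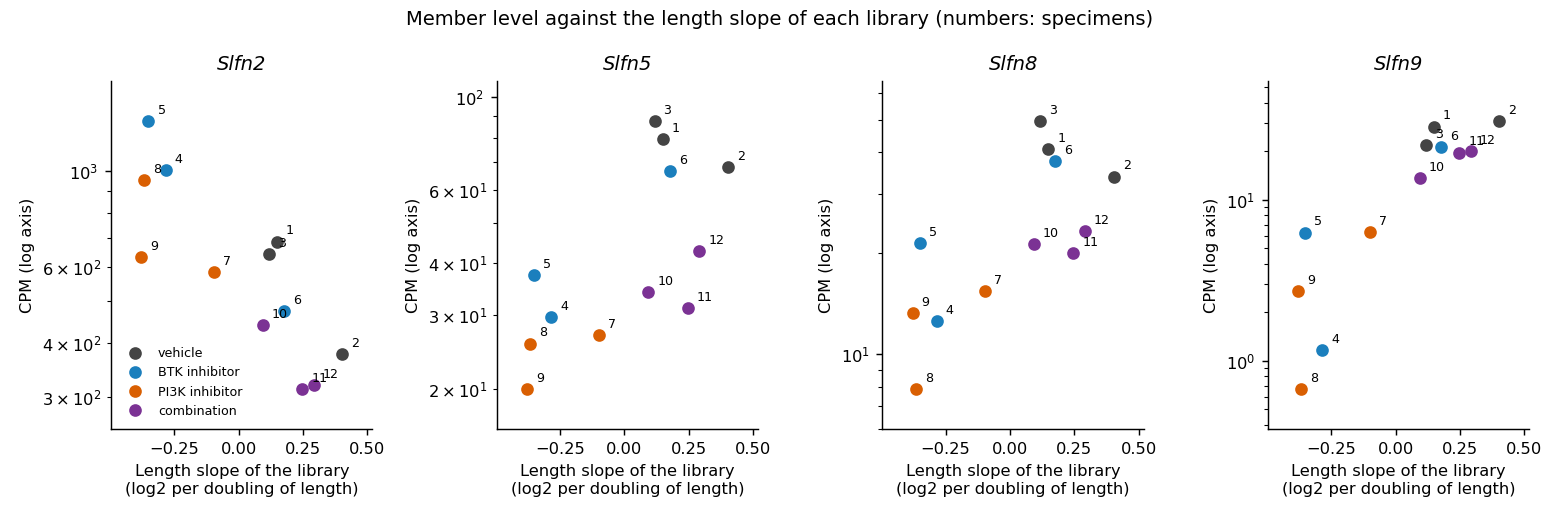
CPM (log axis) of Slfn2, Slfn5, Slfn8 and Slfn9 in each of the 12 libraries against the slope of expression on gene length of that library (log2 per doubling of length), coloured by treatment and numbered by specimen. Slfn9 is below 6.3 CPM in each library of negative slope; Slfn5 and Slfn8 in the combination are below vehicle, and the slopes of these groups overlap.

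Interferon-stimulated genes, which encode antiviral effectors and were listed without any Schlafen gene, were read beside the family. Of 34 tested, 8 passed as lower with the PI3K inhibitor and 0 as higher, where 5.82% of all tested genes passed as lower; the median log2 difference was -0.81. Oasl2, an oligoadenylate synthetase-like gene, was at 37.6 ± 9.87 CPM with the PI3K inhibitor against 121 ± 24.0 in vehicle (SD, n = 3). Oas3, which makes the activator of RNase L, was at 60.2 ± 9.28 against 180 ± 10.4 CPM, and the RNA sensor gene Ddx58 at 23.6 ± 6.78 against 63.0 ± 5.22. With the BTK inhibitor the median was -0.76 and with the combination -0.83, where 34 of 34 were negative. In either comparison edgeR called 0 listed genes, as it called 0% of all tested genes. Over all tested genes 3153 and 626 had an unadjusted p under 0.05, a count not made for the list. In the combination 23 of 34 did not overlap vehicle, all lower, against 9.47% of tested genes, among them Ifit3b at 2.66 ± 0.43 against 10.7 ± 2.57 CPM. With the PI3K inhibitor 21 lay below vehicle without overlap and 1 above, against 26.3% of tested genes below. With the BTK inhibitor 9 lay below and 1 above, against 9.61% below. This list was chosen with earlier results of these data known, so nothing is read from these counts.

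The interferon signal chain and quiescence regulators were smaller lists. Of 16 chain genes 4 passed as lower with the PI3K inhibitor and 0 as higher, where 5.82% of all tested genes passed as lower. The median was -0.49, against -0.01 over all tested genes. Those 4 were the receptor gene Ifnar1 at 41.5 ± 4.65 against 76.8 ± 3.06 CPM, the kinase genes Jak1 and Tyk2, and Irf7. The last, the factor that amplifies interferon responses, was at 45.9 ± 9.24 against 90.1 ± 17.7 CPM. Irf7, which is also on the list of interferon-stimulated genes, was at 43.95 ± 12.8 CPM after the BTK inhibitor and 42.98 ± 7.78 after the combination, where neither difference passed. Of 13 tested quiescence regulators 2 passed as lower with the PI3K inhibitor, Runx1 and the mTORC1 brake Tsc1, and 0 as higher. Their median was -0.37, and the share of all tested genes is the same 5.82%. With the BTK inhibitor and the combination the medians were 0.10 and -0.02, and edgeR called 0 in either, as it called 0% of all tested genes. The calls of all 3 lists with the PI3K inhibitor rest on the same fit as those of the members, in which 0 genes passed with the length offset. The lists were not set beside genes of like length, and nothing is read from their counts.

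Markers of monocytes, a cell type with known Schlafen expression, had a lower sum in each treated group. The summed level of their 12 markers, none at 0, was 2807 to 3450 CPM in vehicle, 1862 to 2733 with the BTK inhibitor, 1670 to 2234 with the PI3K inhibitor and 2161 to 2518 with the combination, with no treated specimen reaching vehicle. Of 16 marker lists this was the 1 that was lower without overlap in each treated group. The margin was narrow in BTK inhibitor replicate 4, at 2733 against 2807 CPM in vehicle replicate 3. Markers of mature and immature neutrophils were lower without overlap in the combination only among the comparisons with vehicle: 6858 to 7677 against 9836 to 11009 CPM and 28193 to 37389 against 45636 to 51497 CPM. Plasma cell markers (6 genes, none at 0) were higher without overlap with both single inhibitors, at 829 to 1703 CPM for BTK and 719 to 1364 for PI3K against 271 to 608 in vehicle. Eosinophil, basophil and mast cell markers (10 genes) were higher with the PI3K inhibitor, at 4282 to 8352 against 1785 to 4081 CPM, and stroma markers (9 genes) with the combination, at 87.1 to 219 against 54.3 to 77.8 CPM. Erythroid markers were also higher with the combination. T cell markers overlapped vehicle in each group. Fewer cells of a type and less RNA per cell cannot be told apart in these bulk libraries, and the part of these cell types in the Schlafen levels was not tested. Single markers were not compared, and what the length slope of the libraries contributes to these sums was not tested.

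The genes whose log2 CPM ran most like each member over the 12 specimens were taken from 9883 genes, by Pearson's r, as a description of specimens that share library features such as the length slope. Slfn9 ran with Cep85l (0.99), Dpy19l4 and the RNA exonuclease gene Xrn1 (0.98 each), and Slfn3 with Exoc4, C1galt1 and BC005537 (0.99 each). Slfn8 ran with Camk2d (0.95), the ubiquitin ligase gene Dtx3l (0.94) and Nab1 (0.92), and Slfn5 with Cd244 (0.93), Trim14 (0.92) and Epb4.1l2 (0.91). Slfn2 ran with Cd52, Mcemp1 and 9530068E07Rik (0.98 each), Slfn1 with the paired receptor genes Pilrb2 (0.93) and Pilra (0.92) and with Rdh12 (0.91), and Slfn4 with Necap1, Lilr4b (0.96 each) and Gsap (0.95).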

How the data were processed

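Libraries were made from total RNA with a SMART-Seq low-input kit and Nextera XT, per the labels' protocols. Reads were aligned with STAR and counted with featureCounts on mm10, per the submitters' processing notes, without versions, strand or multi-mapping settings. What the authors deposited is a table of raw counts, in whole numbers, with each gene's length in bases. The 2 samples of each specimen number appear as 1 column. No per-sample column was left unused.

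The test used edgeR 4.0.16 (R 4.3.3): filterByExpr by group (smallest count 10, total 15), TMM scaling, a group-means model over the 12 specimens (glmQLFit and glmQLFTest, robust), and Benjamini-Hochberg adjustment over 12742 genes at a threshold of 0.05, in 5 comparisons. SEs come from the F statistic, CPM use the tested genes' TMM-scaled totals, and log2 CPM a prior count of 2. Specimens of a group differed by more than sampling noise (chi-square over its degrees of freedom, 21.4 to 644), so none were merged. The length offset was a per-library natural spline of log2 length (5 degrees of freedom). Other alternatives were DESeq2 1.42.0, limma 3.58.1 voom with quality weights, RLE scaling, a stricter filter (CPM of 1 in 3 specimens and 50 counts) or none, only the groups compared, Rn45s left out, Y-linked presence as a covariate and leaving out each specimen. Scripts were tested on simulated data. Named genes were all members, up to 4 passing members of a list with the smallest p or otherwise 2, and the 3 genes most like each member by Pearson's r among those whose mean log2 CPM reached 2. Members and lists were chosen with earlier results of these data known.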

Additional observations from a re-analysis of the deposited data

How the results depend on the processing

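Of the 770 alternative values of the members' log2 differences, 9 changed sign. The Slfn2 difference between the PI3K inhibitor and vehicle became -0.076 with the length offset and -0.068 when BTK inhibitor replicate 5 was also left out. That of Slfn5 between the combination and the PI3K inhibitor became -0.050 and -0.044 under the same settings. By limma voom, Slfn3 between the combination and vehicle was 0.0015, and Slfn5 and Slfn8 between the combination and the BTK inhibitor were 0.21 and 0.59. Without BTK inhibitor replicate 6 these last were 0.11 and 0.37, over ranges of -0.54 to 0.11 and -0.47 to 0.37 when each specimen was left out.

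Genes called between the PI3K inhibitor and vehicle numbered 3221 by DESeq2, 4771 by limma voom, 4057 with only the groups compared, 0 with the length offset, 2441 with the offset when BTK inhibitor replicate 5 was left out, and 0 with Y-linked presence as covariate. Members called there were 5, 6, 5, 0, 5 and 0 in the same order. Leaving out each specimen gave 0 to 4375 genes and 0 to 5 members. Between the BTK inhibitor and vehicle DESeq2 called 1085 genes and 1 member, limma voom 2979 and 5, and the test with no filter and the offset without replicate 5 called 1 gene each; each specimen left out gave 0 to 3809 genes and 0 to 6 members. For the combination against vehicle, DESeq2 called 22 genes, limma voom 1241 genes and 5 members, and no filter 1 gene; leaving out any 1 specimen gave 0 genes and 0 members. Against the PI3K inhibitor the combination had 1226 genes and 1 member by DESeq2, 5337 and 6 by limma voom, and 4004 and 5 with only these groups, with 0 to 2499 genes and 0 to 3 members when specimens were left out. Against the BTK inhibitor it had 577 genes and 1 member by DESeq2, 4978 and 4 by limma voom, and 1 gene each with no filter and with the offset without BTK inhibitor replicate 5; leaving out specimens gave 0 to 3470 genes and 0 to 3 members. The cause of these moves was not tested.

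No paired analysis was possible because the specimen numbers are not shared between groups. Taking 200 in place of 500 genes of like length moved no median by more than the SE of the member's difference. Depth limits Slfn9, with 10 counts in PI3K inhibitor replicate 8 and 22 in BTK inhibitor replicate 4, and Slfn3, with 12 counts in BTK inhibitor replicate 5.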

Other observations

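Other Schlafen symbols of the table lie outside the family described above. Slfn14, a long Schlafen gene on the reverse strand (chr11:83275112-83286726) known for its role in platelets and red cells, was at 2.59, 11.8 and 8.68 CPM in vehicle and at 13.2, 20.03 and 17.2 CPM with the combination, each specimen above vehicle. It was at 4.195, 2.42 and 1.39 CPM with the BTK inhibitor and at 2.25, 7.35 and 18.2 CPM with the PI3K inhibitor, which overlapped vehicle. The share of all tested genes above vehicle without overlap in the combination was not counted. In edgeR 0% of tested genes, Slfn14 included, passed between the combination and vehicle. Erythroid markers were also higher without overlap in the combination, at 2831 to 3146 against 560 to 2249 CPM in vehicle over the 11 of 13 markers in the table, of which Hba-a1 and Hbb-bt are listed at 0 in all specimens; their part in the Slfn14 level was not tested. The pseudogene Slfn10-ps was at 3.51 ± 1.63 CPM in vehicle (SD, n = 3), 2.55 ± 1.34 with the BTK inhibitor, 1.80 ± 0.38 in the PI3K inhibitor group and 3.25 ± 1.05 in the combination group. Slfnl1 had 5 counts over the 12 specimens and was not tested.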
